A study of Gallus gallus with 2 samples.

Results

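The primitive streak cells of the HH5 chicken embryo were the 710 cells that the authors' annotation calls primitive streak, of 7750 cells in all (9.16%, exact 95% binomial interval 8.53 to 9.83%, counting error only). They came from 1 suspension of whole gastrulating embryos, staged HH5 in the Hamburger-Hamilton series, with no treatment or genotype named in the labels. Cells were run through the 10x Multiome protocol, in which RNA and open chromatin (ATAC) are read in the same cell, and gave 1 RNA library and 1 ATAC library. The values analysed were, for each cell, 2 coordinates of a weighted nearest neighbour UMAP (an embedding that places cells by their RNA and ATAC profiles together), a class name and an ATAC rank. With 1 preparation there is no replicate error, so all values are descriptions over cells and no difference was tested.

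The primitive streak is the midline furrow of the gastrulating bird embryo. Epiblast cells move into it, lose their epithelial form and leave it beneath the surface as mesoderm or endoderm. The T-box factor TBXT (brachyury) and the homeobox factor MIXL1 are standard markers of streak cells and of nascent mesoderm in vertebrates. Chromatin that opens or closes along such a passage changes which enhancers a cell can use, and an ATAC profile records that state. TBXT and MIXL1 levels were not analysed here, so the class name was not checked against its markers and is the authors' own.

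Every one of the 710 streak cells carried an ATAC rank. The ranks of all 6681 ranked cells run from 1 to 6681 with each used once, so a rank gives only the order of a cell among the others. What was ranked, and what a low or a high rank stands for, is not given in the sources used here. Streak ranks ran from 1714 to 6676 with a median of 4654.5 and a standard deviation of 1095 over cells. The 10th percentile lay at 3374, the 30th percentile at 3925, the 70th at 5522 and the 90th at 6303, so the class filled most of the upper part of the scale rather than a narrow band. Of the streak cells, 65 (9.15%, exact 95% interval 7.14 to 11.5%) lay below the middle rank of 3341. At the other end, 20 of the 100 highest-ranked cells were streak cells (20.0%, 12.7 to 29.2%), whereas streak cells were 10.6% of all ranked cells (9.90 to 11.4%).

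In the embedding the streak formed a narrow bridge between the ectoderm, at low values of the second coordinate, and the mesoderm, at high values. Its second coordinate ran from -2.51 at the 5th percentile to 0.73 at the 95th percentile, and its first coordinate from -3.22 to -1.24. Within the band of first coordinates from -4 to 0.5, the share of ranked cells that were streak was 23.3% between second coordinates -3 and -2.5. It was 97.7% between -2.5 and -2, and all 140 cells between -2 and -1.5 were streak. Toward the mesoderm the share was 93.3% between -1 and -0.5, 52.2% between 0 and 0.5 and 14.4% between 1 and 1.5. Streak cells were thus nearly the only cells at the waist of the bridge, and mixed with other classes at both ends. Class names, embedding and, by its name, the rank all rest on profiles of the same cells. A relation among them is therefore not one of independent measurements, and distances in the embedding are not distances in the embryo.

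**Figure D1:**
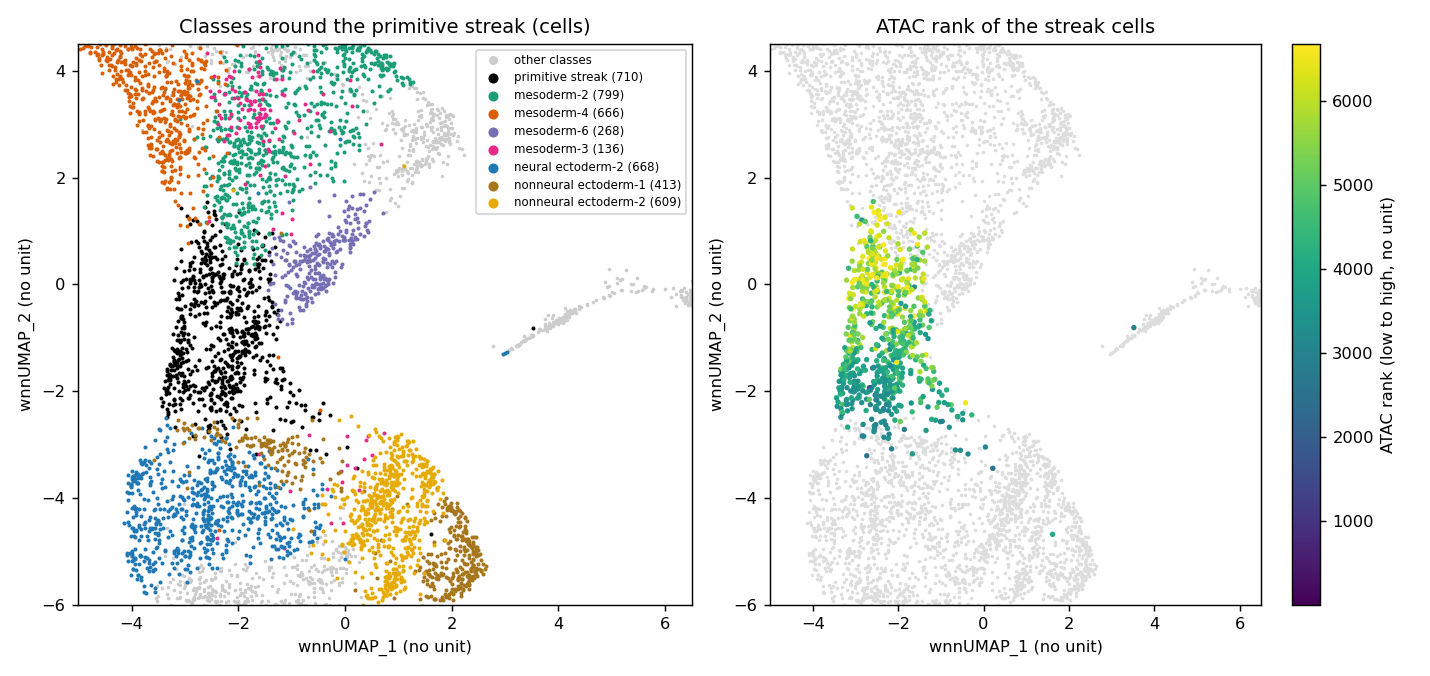
The left panel plots cells by both embedding coordinates (no unit), with the 710 streak cells in black, bordering classes in colour and other classes in grey; the right panel colours the streak cells by ATAC rank. The streak spans the gap between ectoderm below and mesoderm above, and its ranks run from low at the ectoderm side to high at the mesoderm side.

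Taken over the whole streak, rank rose along the length of the bridge and scarcely across it. Over the 710 cells, the rank had a Spearman's rho of 0.76 with the second coordinate and 0.06 with the first. A plane over both coordinates fitted 55.7% of the variance of the streak ranks, with a slope of 785 ranks per unit of the second coordinate and 78.5 per unit of the first. The second coordinate alone fitted 55.5%. A position between the layers, defined as the mean distance to the 15 nearest ectoderm cells over the sum of that distance and the same distance to mesoderm, gave a rho of 0.73 with the rank. These correlations are across cells of 1 preparation, which are not independent replicates.

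The rise was gradual and ran on into the zone where streak cells met mesoderm. When the streak cells were divided by the second coordinate into 10 bins of 71, numbered from the ectoderm side, the median rank was 3424 in bin 1 (interquartile range 3114 to 3712.5), 3630 in bin 2 and 3738 in bin 3. It was 4091 in bin 4, 4429 in bin 5 and 4955 in bin 6. It reached 5462 in bin 7, 5651 in bin 8, 6013 in bin 9 and 6037 in bin 10 (interquartile range 5517 to 6395). No single pair of neighbouring bins was sharply apart. A cell ranked above a cell of the bin before it in 58.4 to 66.7% of pairs for bins 2 to 9, where 50% means no difference in level, and in 51.1% of pairs for bin 10 against bin 9. In windows of 0.5 units of the second coordinate, the streak median was 6001 between 0 and 0.5, 5929.5 between 0.5 and 1 and 6309.5 over the 16 cells between 1 and 1.5. Of the 65 streak cells below the middle rank, 32 were in bin 1, 17 in bin 2 and 9 in bin 3.

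**Figure D2:**
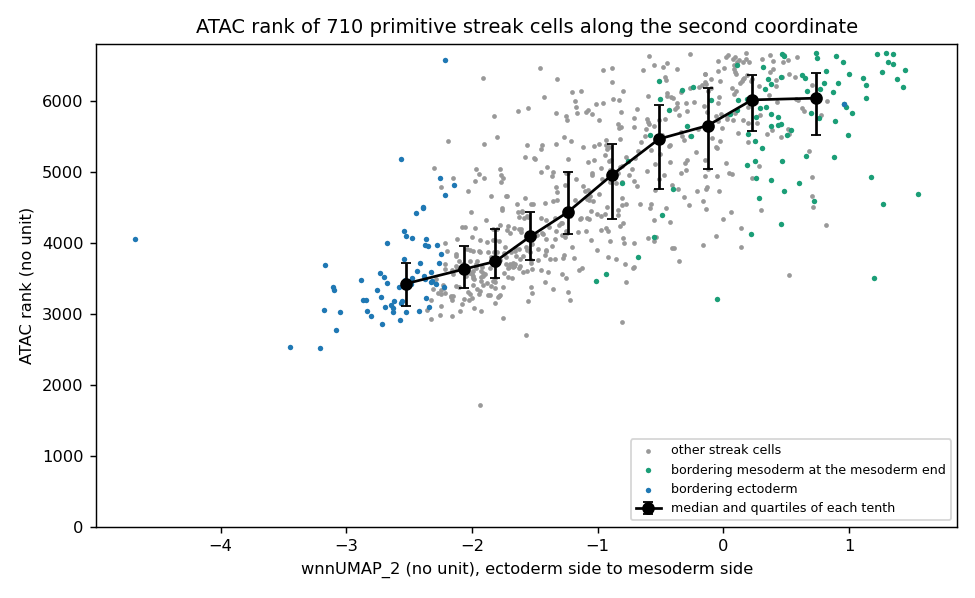
ATAC rank (no unit) of each streak cell against the second embedding coordinate, with the median and quartiles of 10 bins of 71 cells in black; blue points border ectoderm and green points border mesoderm at the mesoderm end. Medians rise from 3424 in bin 1 to 6013 in bin 9 and then level off at 6037 in bin 10.

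Inside broader stretches the relation was weaker toward mesoderm. With the streak cut into 5 stretches of 142 cells along the second coordinate, rho between rank and that coordinate within a stretch was 0.31 in stretch 1, beside ectoderm, 0.31 in stretch 2, 0.17 in stretch 3, 0.20 in stretch 4 and -0.0025 in stretch 5, beside mesoderm. A rho within a stretch also depends on how far the stretch extends, which was not adjusted for.

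Across its width the streak showed differences that changed sign along its length. In each stretch the cells were divided by the first coordinate into left, middle and right columns of 47 or 48 cells. In stretch 1 the right column had a median rank of 3771, against 3355 in the middle and 3439.5 on the left. Right cells ranked above middle cells there in 75.5% of pairs, and in 72.7% in stretch 2, where the medians were 4192 on the right and 3715 in the middle. In stretch 3 the left column was the highest at 4899, with 4530 in the middle and 4725 on the right. In stretch 4 the columns lay within 5516 to 5657. In stretch 5 the middle column was the highest, with a median of 6316 (interquartile range 5739 to 6561), against 6060.5 on the left and 5814 on the right. Right cells there ranked above middle cells in 31.0% of pairs. The columns were therefore ordered one way near ectoderm and another near mesoderm, and their interquartile ranges overlapped in every stretch. The columns also differed on the second coordinate. In stretch 1 the right column lay lower on it than the middle one (medians -2.35 and -2.23), as in stretch 2 (-1.73 and -1.67). In stretches 3 and 4 the column with the lowest median rank lay lowest on it (middle, -1.12, and right, -0.41). In stretch 5 the middle column lay highest on it (0.52, against 0.44 on the left and 0.38 on the right). A part of the second coordinate in the column differences was not tested.

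**Figure D3:**
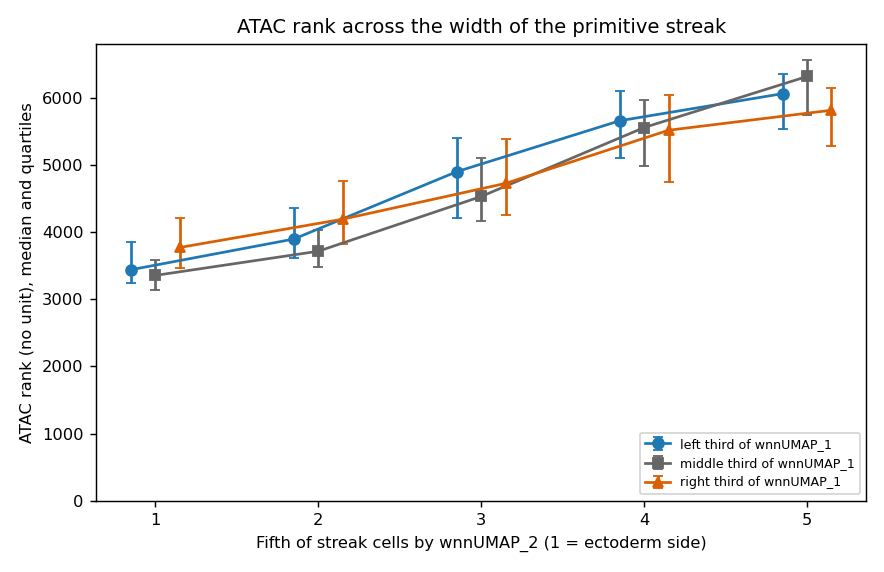
Median ATAC rank (no unit) with quartiles for left, middle and right columns of streak cells by the first coordinate, in 5 stretches along the second coordinate from ectoderm (1) to mesoderm (5). The right column is highest in stretch 1 (3771) and the middle column is highest in stretch 5 (6316).

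For 543 streak cells, 76.5% of the class (exact 95% interval 73.2 to 79.6%), all 15 nearest cells in the embedding were streak cells too. The others lay at a border, defined as having at least 1 cell of another class among the 15. Ectoderm bordered 65 cells (9.15%) and mesoderm bordered 117 (16.5%, 13.8 to 19.4%), with 16 cells at both. Of mesoderm classes, mesoderm-2 bordered 63 streak cells, mesoderm-4 bordered 39, mesoderm-6 bordered 35 and mesoderm-3 bordered 23.

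On the ectoderm side the streak met a mixed edge of nonneural ectoderm-1 and neural ectoderm-2, as the authors named them. Nonneural ectoderm-1 bordered 63 streak cells and neural ectoderm-2 bordered 32, and 30 cells bordered both. The 32 cells beside neural ectoderm-2 had a median rank of 3219 (interquartile range 3048 to 3479), and the 44 neural ectoderm-2 cells they met had 3158 (2948 to 3350). Those streak cells differed from the neural ectoderm-2 cells among their own nearest cells by a median of -98.75 ranks, and 13 of 32 ranked higher. Ranks on that border were thus nearly continuous.

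All 63 streak cells beside nonneural ectoderm-1 had a median rank of 3475 (interquartile range 3141.5 to 3965.5). The 89 nonneural ectoderm-1 cells they met had 3137 (2917 to 3327), so those ranges overlapped. Against nearby nonneural ectoderm-1 cells the median difference was 164 ranks, with 38 of 63 higher. The 33 streak cells beside nonneural ectoderm-1 but not neural ectoderm-2 lay farther right, at a median first coordinate of -1.22 against -2.54 for the cells beside neural ectoderm-2. Their median rank was 3714 (interquartile range 3439 to 4066). The 43 nonneural ectoderm-1 cells they met had 3164 (2985 to 3342), so for these 33 cells the interquartile ranges of both sides were disjoint. Against the nonneural ectoderm-1 cells among their own nearest cells the difference was smaller, a median of 229 ranks with 23 of 33 higher. These 33 include 1 cell that lay at the mesoderm end, at a second coordinate of 0.96. They ranked above the streak cells beside neural ectoderm-2 in 74.5% of pairs. Only 7 streak cells bordered nonneural ectoderm-2, with ranks from 2535 to 6573.

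On the mesoderm side the bordering classes followed one another from right to left. Streak cells beside mesoderm-6 had a median first coordinate of -1.43, and those beside mesoderm-2 had -2.01. Those beside mesoderm-4 at the mesoderm end had -2.70. Cells beside mesoderm-6 also met it lower on the bridge, at a median second coordinate of -0.10 against 0.66 for mesoderm-2 and 1.19 for mesoderm-4.

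The 63 streak cells bordering mesoderm-2 ranked from 3504 to 6676 with a median of 5832 (interquartile range 5216 to 6348). The 87 mesoderm-2 cells they met had a median of 6061 (5546 to 6517). Each streak cell differed from the mesoderm-2 cells near it by a median of -36 ranks, and 30 of 63 ranked higher. For comparison at a like second coordinate, each border cell was set against the median of the 30 fully surrounded streak cells closest to it in that coordinate. The cells beside mesoderm-2 differed from these by a median of -247.5 ranks, and 26 of 63 were above. Most of these cells were therefore not above the surrounded streak cells they were set against. The match left out the first coordinate, at a median of -2.01 for these cells and -2.44 for all surrounded cells. Border cells past the end of the surrounded ones (second coordinate above 0.82) were compared with the nearest that existed.

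Beside mesoderm-6, 35 streak cells ranked from 3212 to 6596 with a median of 5651 (interquartile range 4804 to 5980.5), and the 28 mesoderm-6 cells they met had 5361.5 (3937 to 5926). Streak cells differed from nearby mesoderm-6 cells by a median of 27.5 ranks, with 19 of 35 higher. Against surrounded streak cells at a like second coordinate they differed by a median of -250 ranks, with 11 of 35 above. Ranks beside mesoderm-2 were above those beside mesoderm-6 in 64.4% of pairs, with 11 cells in both groups.

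The mesoderm-4 border was really of 2 kinds. Of its 39 streak cells, 20 met mesoderm-4 at the mesoderm end. The other 19 were borders only because of 2 isolated mesoderm-4 cells that lay among streak cells nearer the ectoderm. Neither isolated cell had another mesoderm-4 cell among its 15 nearest. One, with a rank of 6411, stood among cells with a median rank of 3845, and the other, with a rank of 4849, among cells with 5372. The median over all 39 streak cells was 5389, which describes neither kind. At the mesoderm end the median was 6223.5 (interquartile range 5844 to 6423). Those cells ranked above cells beside mesoderm-6 in 75.6% of pairs. They ranked above cells beside mesoderm-2 in 59.2%, with 14 cells shared with the mesoderm-2 group. This order depended on the border rule. With at least 3 of 15 nearest cells needed, only 6 cells bordered mesoderm-4, with a median of 5481. All 6 lay at the mesoderm end, since 2 isolated cells cannot make up 3. Under that rule the median was 5818 beside mesoderm-6 (19 cells) and 6036 beside mesoderm-2 (40 cells). The 20 cells at the mesoderm end differed from the mesoderm-4 cells near them by a median of 1037 ranks, with 15 of 20 higher. The 16 mesoderm-4 cells as a group, however, had a median of 5820.5. Against the surrounded streak cells closest in second coordinate, they were higher by a median of 216 ranks and in 14 of 20 cases. Their median second coordinate of 1.19 was past the end of the surrounded cells (0.82), so this was largely not a comparison at a like place. The cells beside mesoderm-2 and mesoderm-6 differed by medians of -247.5 and -250 ranks on this measure, but the mesoderm-2 group shares the 14 cells named above. The 19 cells around the isolated mesoderm-4 cells had a median of 4420 (interquartile range 3897 to 5375). Of these 19, 18 were above surrounded streak cells at a like second coordinate, and the median difference was 723 ranks. The 19 lay around only 2 points (9 and 10 cells), so they are not separate cases. They lay on the right flank, at a median first coordinate of -1.17, against -2.44 for all surrounded streak cells. In stretches 1 and 2 the right column, which can include these same cells, had the highest median. The group also reached a second coordinate of -1.02, in stretch 3, where the left column was the highest. A part of the flank in their ranks was not tested.

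Mesoderm-3 likewise bordered the streak at both ends. At the ectoderm end 11 streak cells beside it ranked from 2535 to 4420 with a median of 3480. All 11 ranked above the median of the mesoderm-3 cells among their own nearest cells. Together the 10 mesoderm-3 cells they met had a median of 2509.5, and a streak cell ranked above one of them in 93.6% of pairs. At the mesoderm end 12 streak cells beside 2 mesoderm-3 cells had a median of 6348. Their second coordinates, 0.88 to 1.44, were all past the end of the surrounded streak cells (0.82). Against the surrounded cells closest in second coordinate they differed by a median of 340.5 ranks, with 7 of 12 higher. For these 12 that was not a comparison at a like place on the bridge. The median of 4420 over all 23 is a mixture of both ends. Taking only mesoderm cells at the mesoderm end, 93 streak cells bordered mesoderm, with a median rank of 5832 (interquartile range 5158 to 6274). They ranked above the 65 cells bordering ectoderm in 94.4% of pairs, against 89.8% when all 117 were counted.

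**Figure D4:**
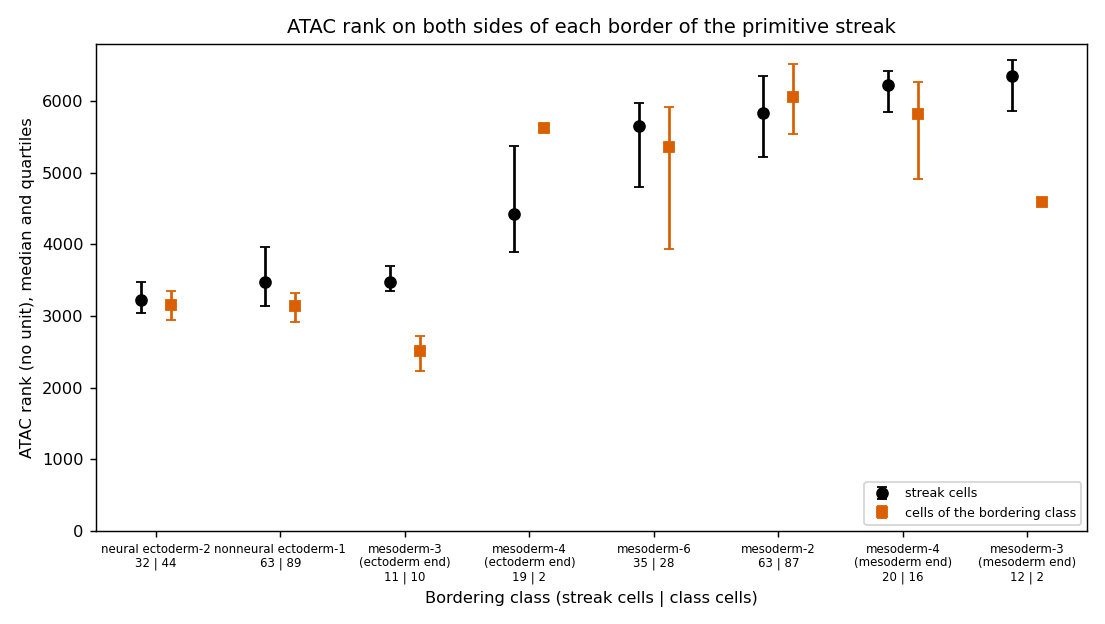
Median ATAC rank (no unit) with quartiles of the streak cells at each border (black) and of the cells of the bordering class that they met (orange; no quartiles where there were 2 cells), with both cell numbers under each name. Both sides are close at neural ectoderm-2 (3219 and 3158), mesoderm-2 (5832 and 6061) and mesoderm-6 (5651 and 5361.5), and mesoderm-3 and mesoderm-4 appear at both ends of the streak.

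Beyond its borders the rank took different courses in the bordering mesoderm classes and fell away on the ectoderm side. Each bordering class was divided into 5 groups by distance from the streak. In mesoderm-2 the median rank fell from 6020 in the nearest group (160 cells) to 5593, 4886, 4183.5 and 3659 in the farthest, with a rho of -0.67 between rank and distance over 799 cells. In mesoderm-4 it stayed high, from 5879.5 in the nearest group to 5546 in the farthest (rho -0.08, 666 cells). In mesoderm-6 it was 5361.5 nearest the streak, then 4678, 4611 and 4731 with no steady fall, and 4055 in the farthest group (rho -0.29, 268 cells). In neural ectoderm-2 it fell from 2938 to 1167 (rho -0.78, 668 cells), and in nonneural ectoderm-1 from 3164 to 1055 (rho -0.72, 413 cells). The groups covered unlike distances, with medians from 0.50 to 1.94 in mesoderm-6 and from 0.82 to 4.46 in mesoderm-2. These values therefore do not compare how steeply the classes fell. The mesoderm end of the streak and the nearest mesoderm-2 cells thus held the top of a course that rose from the ectoderm through the streak and came down again through mesoderm-2. High ranks were not particular to that course. Mesoderm-4 reached a median of 6010 in its group 3, and a streak cell ranked above a mesoderm-4 cell in 27.1% of pairs.

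**Figure D5:**
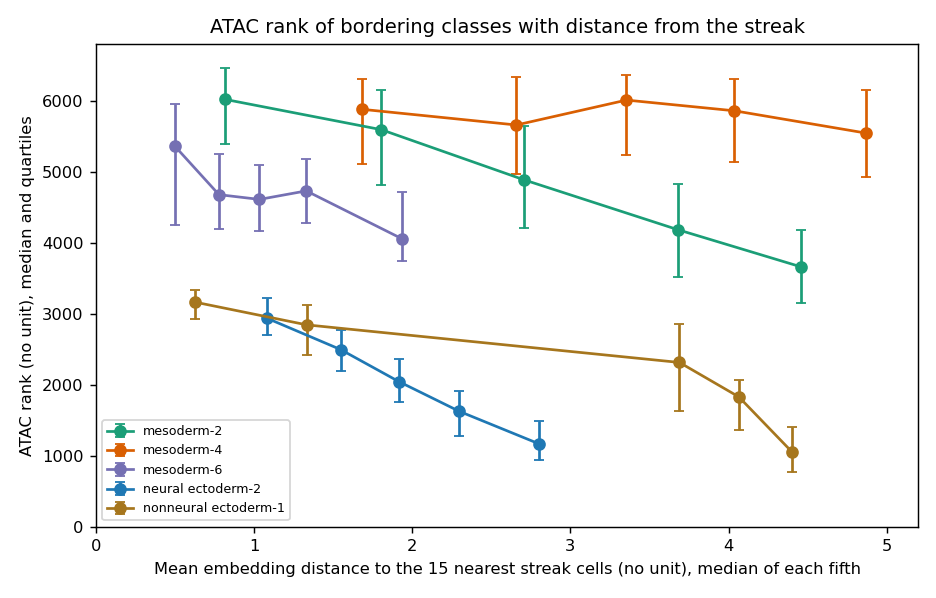
Median ATAC rank (no unit) with quartiles for 5 groups of cells in each bordering class, against the mean embedding distance to the 15 nearest streak cells (no unit). Ranks fall with distance in mesoderm-2 (6020 to 3659), neural ectoderm-2 (2938 to 1167) and nonneural ectoderm-1 (3164 to 1055), and stay between 5546 and 6010 in mesoderm-4. In mesoderm-6 they go from 5361.5 to 4055 over a shorter distance, with no steady fall. The nonneural ectoderm-1 groups are split by a gap between distances 1.33 and 3.69.

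The gradient of the streak ran the same way along the second coordinate as that of the adjoining ectoderm classes. Spearman's rho with that coordinate was 0.76 in the streak, 0.78 in neural ectoderm-2 and 0.78 in nonneural ectoderm-1. The nonneural ectoderm-1 values include its groups far from the streak, past the gap between distances 1.33 and 3.69. That rho was 0.03 in mesoderm-6, -0.56 in mesoderm-2 and -0.11 in mesoderm-4. In planes fitted over both coordinates, each slope holds the other coordinate fixed. Slopes for the second coordinate were 785 ranks per unit in the streak, 639 in neural ectoderm-2, 875 in nonneural ectoderm-1 and 683 in mesoderm-6. They were -111 in mesoderm-2 and -140 in mesoderm-4. Along the first coordinate the slope was 78.5 in the streak, -62.9 in neural ectoderm-2 and 172 in nonneural ectoderm-1, and it was -1246 in mesoderm-6, -776 in mesoderm-2 and -165 in mesoderm-4. Taken alone, the first coordinate had a rho with rank of -0.46 in nonneural ectoderm-1 and 0.07 in neural ectoderm-2, opposite in sign to those slopes. In the other classes named, rho and slope had the same sign. Mesoderm-6 had nearly the same median rank as the streak (4653.5), and a streak cell ranked above a mesoderm-6 cell in 49.9% of pairs. Its spread was smaller, with an SD of 868 against 1095, and a plane fitted 26.1% of its variance against 55.7% in the streak. These differences between classes could not be tested with 1 preparation.

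Single cells scattered around the trend, most in stretches 3 and 4. The rank of a streak cell differed from the median of its 15 nearest streak cells by a median of 401.5 ranks in either direction. That figure was 242.5 in stretch 1, 302 in stretch 2, 501.5 in stretch 3, 596 in stretch 4 and 425 in stretch 5. It was 275.5 in neural ectoderm-2, 270 in nonneural ectoderm-1, 481 in mesoderm-2, 482.5 in mesoderm-4 and 491 in mesoderm-6. Scatter at the ectoderm side of the streak was thus of the size found in ectoderm, and scatter in stretches 3 to 5 was nearer that of mesoderm. A difference of over 1000 ranks was found for 96 streak cells (13.5%), 46 of them above and 50 below their surroundings. In stretch 1, 12 of 13 such cells were above, and in stretch 5, 16 of 17 were below. The rank ends at 6681, so cells at the mesoderm end had little room above them.

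The streak cells farthest from their surroundings show the size of these exceptions and were chosen for it. A cell at coordinates -2.27 and -1.91, well within the ectoderm side, had a rank of 6315 where its nearest streak cells had a median of 3539. A cell at -2.85 and 1.20, at the mesoderm tip, had a rank of 3504 against 6316. The lowest-ranked streak cell of all, at 1714, lay at -2.67 and -1.94 among streak cells with a median of 3399. The highest, at 6676, lay at -2.44 and 1.30 among streak cells with a median of 6316.

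Of the 710 cells, 59 (8.31%) had fewer than 8 streak cells among their 15 nearest, and 6 had none. One of the 6 lay at coordinates 3.52 and -0.81 with all 15 nearest cells notochord, the axial mesoderm that forms ahead of the streak. Its rank of 2882 lay within the ranks of those notochord cells, 1189 to 3240. Another lay among 15 mesoderm-2 cells with a rank of 6515, beside a median of 6381. The other four lay mostly among ectoderm, with ranks of 4048, 2535, 2514 and 3690, where the nearest cells had medians of 2167, 2505, 2849 and 2958. For 5 of the 6 the rank was within 732 of the surrounding median, and the exception was the cell of rank 4048, 1881 above its surroundings. Doublets and the depth of each cell were not analysed here, and their part in the exceptions was not tested.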

How the data were processed

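The deposited table holds 1 row per cell barcode of 1 HH5 preparation (1 RNA and 1 ATAC library). Per the file headers, it gives an ATAC rank, a class name and the position in a weighted nearest neighbour UMAP. Rank and coordinates, as the authors deposited them, were used as scores without a unit. The build galGal6 and the tools Signac 1.8.0, Seurat 4.3.0 and Cell Ranger ARC 2.0.0 are named in the submitters' processing notes. Cell filters, doublet treatment, the naming of classes and the ranked quantity were not given in the sources used here. Depth per cell is unknown.

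Ranks were checked to be 1 to 6681, each used once, with 1069 cells unranked. Nearest cells were the 15 closest other cells by Euclidean distance; distance of other classes from the streak was to the 15 nearest streak cells among those with at least 8 streak cells nearby. Ectoderm pooled both neural and both nonneural classes, and mesoderm pooled mesoderm-1 to mesoderm-6. A border was assigned to the mesoderm end when the neighbouring mesoderm cell lay above the median second coordinate of the streak (-1.05). Shares carry exact (Clopper-Pearson) 95% intervals, for counting error only. Classes named in the text were chosen by rule as the streak, every class bordering it, and mesoderm-6, mesoderm-2 and neural ectoderm-2 for comparison; genes were named only as background. The members, classes and summaries were chosen with earlier results of these data known. The columns across the width, distance groups, stretches, division of borders by end, comparison at like second coordinate and scatter were chosen after seeing the data. No test was made, since cells are not replicates. Functions were tested on simulated data. Python 3.11.15, pandas 2.3.3, NumPy 2.4.6, SciPy 1.17.1 and matplotlib 3.10.9 were used.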

Additional observations from a re-analysis of the deposited data

How the results depend on the processing

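Of 43 alternatives over 13 results, 34 stayed within the binomial interval of the median or share, or within 0.1 for correlations and fitted shares of variance, and 9 did not. Such an interval is wide where border cells are few or come from both ends. For mesoderm-3 it was 3501 to 6316, so medians of 3690 (5 nearest cells) and 5057 (50 nearest cells) lay within it. Staying within is therefore a weak criterion there. With means in place of medians, the rank of streak cells bordering ectoderm was 3629 and that of cells bordering nonneural ectoderm-1 was 3635. With at least 3 of 15 nearest cells needed for a border, the median was 3289 for nonneural ectoderm-1 and 2777 for mesoderm-3, the latter over 2 cells. For mesoderm-4 it was 5481 over 6 cells. That lay within the interval over all 39 cells (4631 to 6199) but not within that of the 20 at the mesoderm end (5906 to 6417). The share of streak cells bordering mesoderm, 16.5% with 15 nearest cells, was 11.4% with 5 and 26.5% with 50, because more nearest cells make more borders. With borders at the mesoderm end only, an alternative chosen after seeing the data, it was 13.1%, and the medians were 6348 for mesoderm-3 and 6223.5 for mesoderm-4. The correlation with the second coordinate was 0.74 both with Pearson's r and without the 59 cells that had fewer than 8 streak cells nearby. No paired analysis was possible because there was 1 preparation and no groups to pair. Depth per cell was not analysed here, so its relation to the rank was not tested.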
